A study of Mus musculus and Rattus norvegicus with 12 samples.

Results

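RNA of the tumour suppressor p53 and of 9 genes that p53 is known to activate was measured in 12 stem cell lines derived from mouse and rat blastocysts. The 10 genes were chosen by symbol (Trp53, Mdm2, Cdkn1a, Bbc3, Ccng1, Perp, Zmat3, Btg2, Phlda3 and Trp53inp1), and all 10 were found among the 24411 genes of the mouse tables. The rat tables list 17315 genes, and 9 of the members are described from them, each called here by its mouse symbol. The mouse lines were 3 pXEN lines (pXEN2, pXEN4 and pXEN6), 3 XEN lines (XEN1, XEN2 and XEN5) and 2 ES lines (ES2 and ES3), all of the ICR strain. The rat lines were 4 XENP lines, CX1 and MAX8 of the WKY strain and MAX2 and MAX3 of the F344 strain. By the labels pXEN2, XEN2, XEN5, ES2, CX1 and MAX3 were male, and pXEN4, pXEN6, XEN1, ES3, MAX2 and MAX8 were female. No genetic change, and no agent beyond those of the culture media, is labelled for any line. XEN lines are stem cells of the primitive endoderm and were grown on mouse embryo fibroblasts in 20% serum. ES lines are pluripotent and grew in 15% serum plus LIF and the 2i inhibitors, while mouse pXEN and rat XENP lines shared one culture protocol. Cell type and culture therefore changed together, and passage ran from 9 in XEN1 to 40 in CX1. Each sample was its own line, so the spread between samples is that between lines.

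p53 is a transcription factor that binds paired copies of a short DNA motif and switches on genes of cell cycle arrest, cell death and its own restraint. Its activity is set largely at the protein level, since Mdm2 marks p53 for degradation and stress signalling breaks that contact. The amount of Trp53 RNA is therefore only one of the inputs to p53 activity. Mouse ES cells are known to hold abundant p53 protein. Protein, phosphorylation and DNA binding were not measured here.

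Promoter sequences are shown for the members that carry a p53-type motif near an annotated start, since p53 binds motifs of this kind. Binding at the sites shown was not measured. RefSeq promoter windows on GRCm38.p6, from 250 bases before to 50 after a start site, were found for 7 of the 10 members (10 windows), and not for Perp, Zmat3 or Trp53inp1. The motif searched was a pair of abutting copies of the p53 consensus decamer, each with its CNNG core intact and at most 3 mismatches over the pair. The consensus is its own reverse complement, so 1 scan reads both strands. Of all 32851 windows 1.38% held such a pair, and 4 windows of members did, 1 each for Trp53, Cdkn1a, Bbc3 and Ccng1. The members were picked as p53 and its known targets, and the mismatch limit was set after the windows were read. The 2 figures are therefore a description, and no enrichment can be read from them. The pair stands in capitals between its flanks:
Cdkn1a, chr17:29090908-29090967, plus strand: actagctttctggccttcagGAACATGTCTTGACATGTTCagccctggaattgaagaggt
Ccng1, chr11:40755442-40755501, minus strand: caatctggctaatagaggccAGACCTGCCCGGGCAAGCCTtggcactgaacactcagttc
Bbc3, chr7:16309466-16309525, plus strand: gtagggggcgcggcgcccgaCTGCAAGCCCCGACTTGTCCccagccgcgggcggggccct
Trp53, chr11:69580264-69580323, plus strand: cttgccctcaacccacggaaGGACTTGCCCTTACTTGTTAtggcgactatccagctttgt
The Cdkn1a pair lay 51 to 32 bases before the more upstream of the gene's 2 annotated starts, and the Ccng1 pair 195 to 176 bases before its start. Each had 1 mismatch, a match found in 0.067% of all windows. The Bbc3 and Trp53 pairs had 3 mismatches each. No pair of this kind stood in the windows of Mdm2, Btg2 or Phlda3, and sequence outside the windows was not searched.

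The mouse groups were told apart by markers. Summed CPM of 8 extraembryonic endoderm markers (Gata6 and Sox17 among them) was 3841 to 4696 across pXEN lines, 3486 to 6223 across XEN lines and 27.1 to 51.8 across ES lines, with 7700 to 11185 in rat XENP. CPM are a gene's counts relative to its library's gene total, adjusted between mouse libraries by the TMM method and not adjusted in rat. For 8 pluripotency markers pXEN lines summed to 27.6 to 61.2, XEN lines to 0.278 to 0.528 and ES lines to 3459 to 3499.8, with Sox2 and Esrrb at 0 counts in every endoderm line. The 10 fibroblast markers summed to 138 to 204 CPM in XEN with none at 0, against 3.29 to 8.04 in pXEN and 8.96 to 10.3 in ES. In rat XENP fibroblast markers were at 0.805 CPM or below, and 6 pluripotency markers summed to 163 CPM in CX1 and to 6.25 to 8.32 CPM in the other 3 lines. Libraries held 2661691 to 3483069 gene counts in mouse and 1047535 to 1242937 in rat. Between 20.7% and 50.1% of mouse gene counts fell on Rn45s, a ribosomal RNA precursor.

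Trp53, the gene of p53 itself (chromosome 11, 69580359 to 69591873, plus strand, GRCm38), was several-fold lower in both kinds of mouse endoderm line than in ES. It stood at 50.02, 38.4 and 51.4 CPM in pXEN2, pXEN4 and pXEN6 and at 36.6, 49.8 and 57.9 CPM in XEN1, XEN2 and XEN5. The ES lines had 294 and 321 CPM, and no endoderm line came near them. The fall in pXEN was 6.60-fold (log2 fold change -2.72, SE 0.25, adjusted p = 1.75e-05, quasi-likelihood test of edgeR, Benjamini-Hochberg over 10895 genes). Adjusted p-values are from this fit unless another is named, and a gene is called below 0.05. In XEN it was 6.38-fold (log2 fold change -2.67, SE 0.25, adjusted p = 2.19e-05). pXEN and XEN overlapped, with a log2 difference of -0.05 (95% interval -0.54 to 0.44, adjusted p = 0.973). Under the 13 alternative settings run for each comparison with ES, the log2 fold change stayed between -2.83 and -2.51. A processed pseudogene, Trp53-ps, lies on chromosome 17 (54419680 to 54420841), and 2.63% of the 50-base words of the longest Trp53 transcript also occur in it. Whether reads from those stretches were lost as multimapping was not tested.

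**Figure D1:**
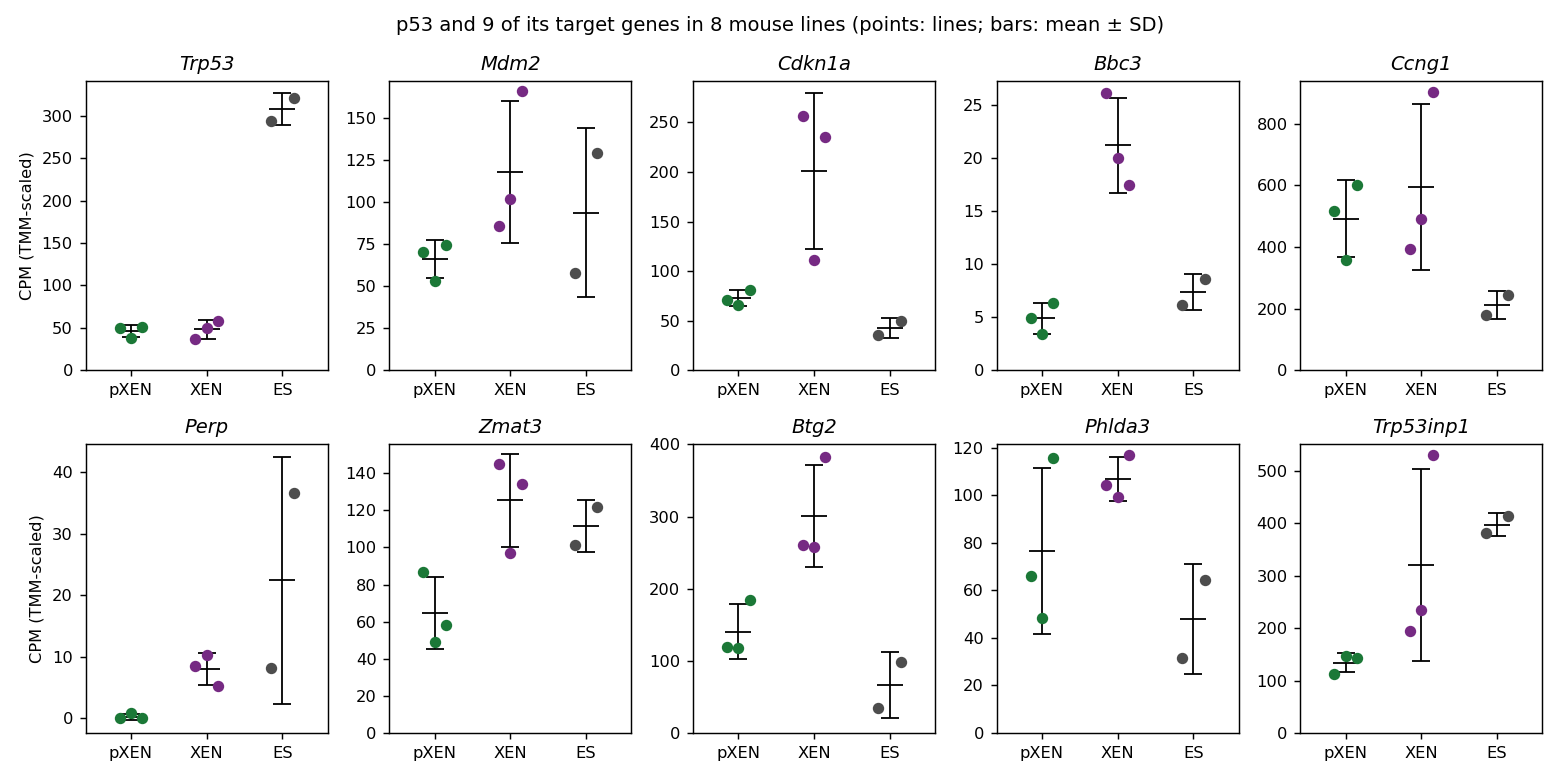
CPM of each member (linear axis, TMM-scaled) in the 3 pXEN, 3 XEN and 2 ES lines, with 1 point a line and bars for mean ± SD. Trp53 stands at 294 and 321 CPM in ES and at 36.6 to 57.9 CPM in the 6 endoderm lines, while Cdkn1a and Btg2 are lowest in ES.

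The 2 ES lines differed from each other in several targets, which bears on each comparison with ES. All 10 members were higher in ES3 than in ES2, while 48.0% of the 10895 genes tested were. The gap was widest for Perp, at 8.22 CPM in ES2 and 36.6 CPM in ES3, and was 34.5 and 99.0 CPM for Btg2. Trp53 and Trp53inp1 differed least between them, by 1.09-fold and 1.08-fold. Rn45s took 38.5% of gene counts in ES2 and 50.1% in ES3, and its part in these differences was not tested.

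The first comparison set pXEN against ES. Of the 10 members, Ccng1 was higher and Trp53, Perp, Zmat3 and Trp53inp1 were lower, with 18.2% of all 10895 genes tested called higher, 17.8% lower and 35.9% in either direction. All 10 passed the filter on low counts. The median log2 fold change of the 9 targets was -0.50, and that of all genes tested -0.03. The second set XEN against ES. Cdkn1a, Bbc3, Ccng1, Btg2 and Phlda3 were higher and Trp53 was the member called lower (20.7% of all genes were called higher, 17.8% lower and 38.4% in either direction). The median over the targets was 1.15, against 0.00 for all genes. Fibroblast markers were also higher in XEN than in ES for 8 of the 9 tested, and their part in the members' differences was not tested. Without ES2, which leaves 1 ES line, log2 fold changes in XEN were 1.30 for Bbc3 and for Ccng1 and 0.74 for Phlda3. They were 1.61 for Btg2, at least 2.026 for Cdkn1a and -2.18 for Perp. In pXEN that of Ccng1 was 1.02. No member was called higher in pXEN without pXEN2 or pXEN6, where 1703 and 1722 of all genes were. The lower members in XEN numbered 2 without XEN5, where Trp53inp1 joined (1566 of 10716 genes were lower). Both comparisons used the same 2 ES lines.

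The last comparison set both kinds of endoderm line side by side. No member was called higher in pXEN, and Cdkn1a, Bbc3 and Perp were called lower. Of all genes 0.918% were called higher and 3.63% lower, 4.55% in either direction. The median of the 9 targets was -1.10 on the log2 scale and that of all genes 0.00. At an unadjusted p under 0.05, 7 members passed here, all with lower values in pXEN, and 7 passed in each comparison with ES. How many of all genes did so was not counted, so no excess of members can be read from these counts. DESeq2 called 0 members higher and 6 lower, and of its 12559 genes it called 144 higher and 473 lower. Of the fibroblast markers 8 of the 9 tested were lower in pXEN as well, and here too their part was not tested. In such bulk samples fewer cells of a type and less RNA per cell cannot be told apart.

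**Figure D2:**
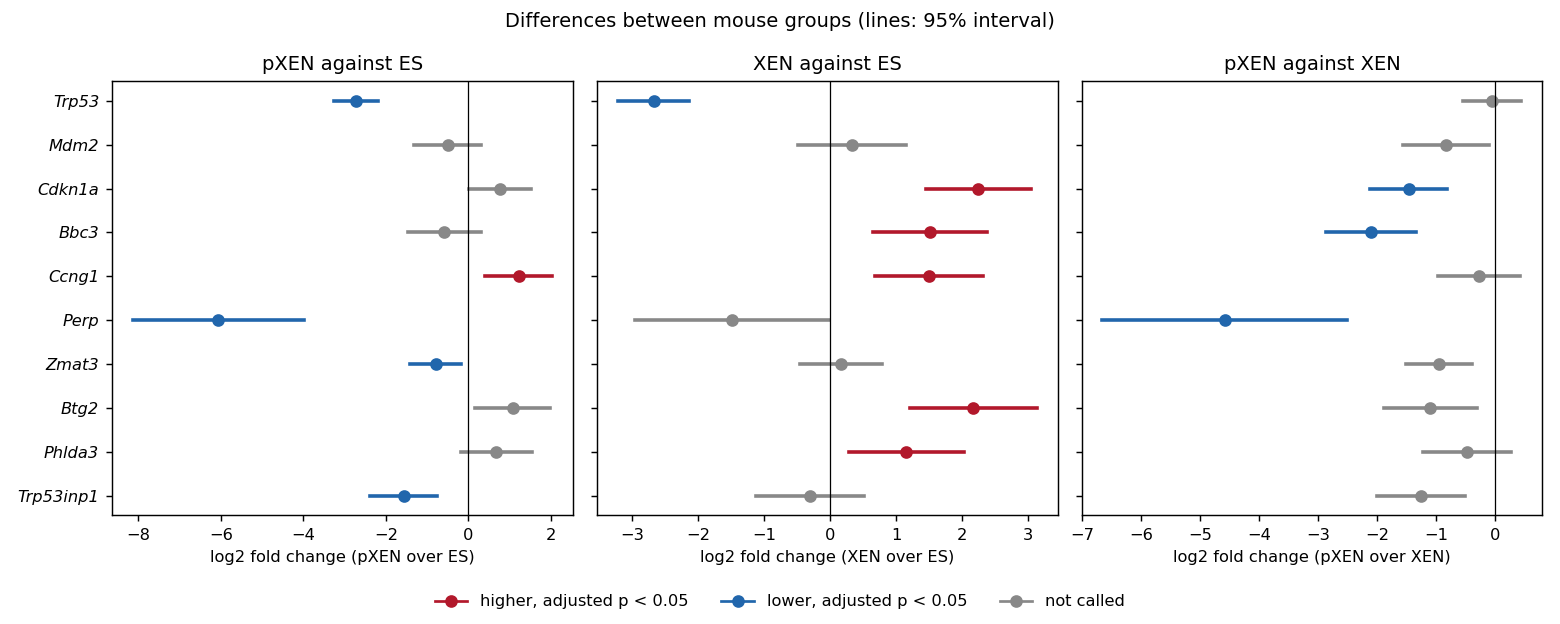
Log2 fold change of each member with its 95% interval (bars) for pXEN over ES, XEN over ES and pXEN over XEN, coloured by the call at an adjusted p of 0.05. Trp53 is about equally low in both comparisons with ES (-2.72 and -2.67), and Cdkn1a, Bbc3 and Perp are called lower in pXEN over XEN.

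Among the arrest genes, Cdkn1a encodes p21, the inhibitor of cyclin-dependent kinases through which p53 halts the cell cycle. Cdkn1a (chromosome 17, 29090976 to 29100727, plus strand) had 70.7, 65.8 and 81.2 CPM in pXEN2, pXEN4 and pXEN6. In XEN1, XEN2 and XEN5 it had 256, 111 and 235 CPM, and in ES2 and ES3 35.4 and 49.5 CPM. The 3 groups did not overlap, and ES, with the most Trp53 RNA, held the least Cdkn1a RNA. Cdkn1a was 4.73-fold higher in XEN than in ES (log2 fold change 2.24, SE 0.36, adjusted p = 0.000783), and this call held under all 13 alternatives. In pXEN it was 2.77-fold lower than in XEN (log2 fold change -1.47, SE 0.30, adjusted p = 0.0167), a call lost without pXEN2, XEN1 or XEN5 (adjusted p up to 0.0723). The difference between pXEN and ES missed the threshold (log2 fold change 0.77, 95% interval 0.02 to 1.53, adjusted p = 0.103) and passed in a fit of those groups alone (adjusted p = 0.0379).

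Btg2, an antiproliferative gene whose product joins the CCR4-NOT deadenylase, followed the same order. Btg2 (chromosome 1, 134075170 to 134079120, minus strand) stood at 119.8, 118 and 184 CPM in the pXEN lines, in the order given above. XEN lines had 261, 258 and 383 CPM and ES lines 34.5 and 99.0 CPM. Again the groups did not overlap. The rise in XEN over ES was 4.50-fold (log2 fold change 2.17, SE 0.43, adjusted p = 0.00322), and the log2 fold change was 3.12 without ES3 and 1.61 without ES2. pXEN differed from ES by 1.07 on the log2 scale (adjusted p = 0.067) and from XEN by -1.10 (adjusted p = 0.14). DESeq2 called both (adjusted p = 0.03 and 0.0408), and without ES3 pXEN passed against ES (adjusted p = 0.00675).

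Mdm2 and Ccng1 encode members of the feedback arm: Mdm2 is the ubiquitin ligase that marks p53 for destruction, and cyclin G1 recruits a phosphatase to Mdm2. Mdm2 (chromosome 10, 117688875 to 117710758, minus strand) was the 1 member called in none of the 3 comparisons. It had 70.4, 53.2 and 74.3 CPM in pXEN, 85.7, 101 and 166 CPM in XEN and 58.0 and 129 CPM in ES. The ES lines lay on either side of pXEN2 and pXEN6 and overlapped the XEN lines too. The log2 difference from ES was -0.50 in pXEN (95% interval -1.31 to 0.30) and 0.33 in XEN (-0.48 to 1.15), which leaves more than a doubling in XEN within the interval. The sign turned without ES3 in pXEN (0.19) and without ES2 in XEN (-0.13). pXEN and XEN did not overlap, but their difference of -0.84 did not pass (adjusted p = 0.242).

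Ccng1 (chromosome 11, 40748552 to 40755311, minus strand) was the most abundant member per length in the endoderm lines. It reached 516, 356 and 602 CPM in pXEN and 393, 489 and 901 CPM in XEN. ES2 and ES3 had 179.7 and 243 CPM, below every endoderm line. The pXEN lines exceeded ES 2.32-fold (log2 fold change 1.22, SE 0.37, adjusted p = 0.024). The XEN lines exceeded ES 2.81-fold (1.49, SE 0.37, adjusted p = 0.00948). The pXEN call was lost without pXEN2, pXEN6, ES2 or ES3 (adjusted p up to 0.17), and the XEN call without ES2 (adjusted p = 0.0921). pXEN and XEN overlapped (log2 difference -0.28, 95% interval -0.97 to 0.42), and the sign turned without XEN5 (0.15).

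Of the death genes, Bbc3 encodes PUMA, a protein that opens the mitochondrial route to apoptosis. Bbc3 (chromosome 7, 16308393 to 16318205, plus strand) was rare, with 12 to 22 counts per pXEN line, 66 to 72 per XEN line and 15 and 22 in ES2 and ES3. These are 4.94, 3.42 and 6.31 CPM in pXEN, 26.1, 20.0 and 17.4 CPM in XEN and 6.17 and 8.57 CPM in ES. XEN stood above both other groups, which overlapped. Bbc3 was 4.29-fold lower in pXEN than in XEN (log2 fold change -2.10, SE 0.35, adjusted p = 0.00589), under each of the 14 alternatives (adjusted p up to 0.0282). It was 2.85-fold higher in XEN than in ES (1.51, SE 0.39, adjusted p = 0.0108), a call lost without ES2 (adjusted p = 0.0931). The pXEN difference from ES was -0.59 (95% interval -1.48 to 0.29).

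Perp, a membrane protein of desmosomes that also takes part in p53-driven death, was nearly absent from pXEN. Perp (chromosome 10, 18845020 to 18857073, plus strand) gave 3 counts over the 3 pXEN lines, all in pXEN4, against 22, 37 and 20 counts in XEN1, XEN2 and XEN5. ES2 gave 20 counts and ES3 94. Pooled by group these are 0.299 CPM for pXEN, 7.94 CPM for XEN and 22.8 CPM for ES. The ratio of pXEN to ES was 0.0131 (exact 95% counting interval 0.00266 to 0.0393, adjusted p = 0.000718) and that of pXEN to XEN 0.0376 (0.0076 to 0.114, adjusted p = 0.0198). Both intervals cover counting error only. The call against ES held under all 13 alternatives (fitted log2 fold changes -9.11 to -4.61, the lowest without pXEN4), and the call against XEN was lost without pXEN2, pXEN6, XEN1 or XEN2 (adjusted p up to 0.0713). XEN and ES overlapped, with a log2 difference of -1.48 (adjusted p = 0.102) that was -2.18 without ES2 (adjusted p = 0.0352) and -0.03 without ES3.

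Phlda3, whose product keeps the survival kinase Akt off the membrane, was less uneven. Phlda3 (chromosome 1, 135766119 to 135769136, plus strand) had 65.8, 48.4 and 116 CPM in pXEN, 104, 99.3 and 117 CPM in XEN and 31.7 and 64.3 CPM in ES. XEN lay above ES, and pXEN overlapped both. The XEN rise of 2.23-fold (log2 fold change 1.15, SE 0.39, adjusted p = 0.0388) did not pass without any 1 of XEN1, XEN2, XEN5 or ES2 (adjusted p up to 0.263), nor with upper-quartile scaling (adjusted p = 0.0571). Without ES3 its log2 fold change was 1.76.

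Zmat3 encodes a zinc finger protein that binds RNA, and Trp53inp1 a nuclear protein that promotes p53 phosphorylation and has a role in autophagy. Zmat3 (chromosome 3, 32334792 to 32366014, minus strand) was at 86.5, 49.0 and 58.3 CPM in pXEN, 145, 96.8 and 134 CPM in XEN and 102 and 122 CPM in ES. pXEN was below both other groups, which overlapped. It was 1.73-fold lower in pXEN than in ES (log2 fold change -0.79, SE 0.28, adjusted p = 0.0471). That call was lost without pXEN4, pXEN6, ES2 or ES3 (adjusted p up to 0.224), with sex as an added term (0.0583) and without the count filter (0.0536). Against XEN the difference of -0.96 missed the threshold (adjusted p = 0.0619) and passed with DESeq2 (0.0183) and without the count filter (0.0292). It passed also without pXEN2 or XEN2 (adjusted p = 0.0402 and 0.0417).

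Trp53inp1 (chromosome 4, 11156431 to 11174379, plus strand) shared with Trp53 its high level in both ES lines, 382 and 413 CPM. pXEN lines had 113, 146 and 143 CPM and XEN lines 195, 234 and 531 CPM, of which only XEN5 exceeded ES. Trp53inp1 was 2.96-fold lower in pXEN than in ES (log2 fold change -1.57, SE 0.37, adjusted p = 0.00727), under all 13 alternatives. XEN differed from ES by -0.31 (95% interval -1.13 to 0.51). Without XEN5 that difference was -0.89 and passed (adjusted p = 0.0205). pXEN stood below every XEN line, with a log2 difference of -1.26 (adjusted p = 0.068) that passed with DESeq2 (0.00767), without the count filter (0.0432) and without XEN1 (0.028).

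One line within each mouse group tended to hold the highest values. pXEN6 was the highest pXEN line for 7 of the 10 members, against 34.1% of all genes tested, and XEN5 the highest XEN line for 6, against 29.7%. XEN1 was the highest for 3 (Cdkn1a, Bbc3 and Zmat3), against 35.0% of all genes, which is no more than that share. It was the youngest XEN line, at passages 9 to 10, and the part of passage was not tested. Members share a library and its scaling, so these counts are a description.

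Levels can be compared between genes per length, here as CPM per kilobase of all annotated exons. In pXEN the order ran from Ccng1 (139.9 ± 35.5 CPM per kilobase, SD, n = 3) through Btg2 (51.2 ± 13.7) and Phlda3 (49.1 ± 22.4) down to Bbc3 (2.30 ± 0.682) and Perp (0.146 ± 0.253). Trp53 ranked 7 of 10 in pXEN at 11.5 ± 1.76 and 7 of 10 in XEN at 11.9 ± 2.65 CPM per kilobase. In ES it ranked 1 of 10 at 76.1 ± 4.67 (SD, n = 2), with Trp53inp1 at 61.4 ± 3.40 and Ccng1 at 60.2 ± 12.8 next to it. In XEN, Ccng1 (169 ± 76.9) and Btg2 (109.6, with lines from 94.1 to 139.6) led, and Cdkn1a reached 56.6 ± 22.0, against 11.9 ± 2.81 CPM per kilobase in ES.

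In rat XENP, kept in the same culture as mouse pXEN, the feedback and arrest genes were abundant and Trp53inp1 was less so. Rat CPM are on another scale than mouse CPM. Rn45s took at most 0.0312% of rat gene counts, the rat tables list fewer genes, and only mouse CPM were TMM-scaled. The parts of these differences were not separated. Each gene is therefore placed by its percentile among 14389 symbols ranked in both species. No test was made between species, since genome and annotation changed with them. Trp53inp1 had 46.7, 33.3, 26.7 and 28.6 CPM in CX1, MAX2, MAX3 and MAX8, at percentiles 63.4 to 72.3, against 93.5 to 95.3 in mouse pXEN, and every rat line ranked it below every mouse line. Multimapping reads made up 65.5% to 70.1% of rat reads, against 7.84% to 9.65% in mouse, and whether members lost reads this way was not tested.

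The other rat members differed in how they ranked against mouse pXEN. Cdkn1a had 153, 280.0, 250.1 and 395 CPM in CX1, MAX2, MAX3 and MAX8 (269 ± 99.6, SD, n = 4), at percentiles 90.2 to 97.1, against 87.7 to 90.3 in mouse pXEN. Mdm2 had 244, 193, 214 and 208 CPM and was even across lines (215 ± 21.2), at percentiles 92.9 to 94.4, against 84.7 to 89.3 in mouse pXEN. Phlda3, at 253, 255, 221 and 348 CPM, ranked at percentiles 94.0 to 96.7, above all 3 pXEN lines. Ccng1 had 1076, 718, 705 and 968 CPM and stood at percentile 98.5 or above in rat XENP as in mouse pXEN. Btg2 (186 ± 27.6 CPM) ranked at percentiles 91.0 to 94.0, against 93.7 to 96.4 in pXEN, with 3 of the 4 rat lines below every pXEN line. Zmat3 (121 ± 47.2 CPM) ranked at 80.7 to 92.6, against 83.4 to 91.3 in pXEN. Bbc3, with 5 to 7 counts per line, ranked at percentiles 44.1 to 46.7, against 48.0 to 52.7 in pXEN.

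Perp was the most uneven member among rat lines, with 50, 10, 2 and 22 counts in CX1, MAX2, MAX3 and MAX8. In CPM these are 40.2, 9.24, 1.91 and 19.6, and the exact 95% counting interval of MAX3 (0.231 to 6.90) ended below the lower bound of CX1 (29.9). CX1, at passages 38 to 40, was the highest rat line for Mdm2, Ccng1, Perp and Trp53inp1, 4 of the 8 members with a mean of at least 10 counts, against 36.5% of the 7699 rat genes with such a mean. It was the lowest for Cdkn1a. CX1 also had the highest pluripotency marker sum of the rat lines (above), all of it from Pou5f1, and its part in the members' levels was not tested. Without CX1 the mean of Perp was 10.3 CPM, against 17.8 CPM over all 4 lines. Both WKY lines were above both F344 lines for Ccng1, Perp and Zmat3 and below them for Btg2, among those 8 members. Such separation upward was seen in 18.1% of those rat genes and downward in 16.6%, and with 2 lines a strain it was not tested.

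**Figure D3:**
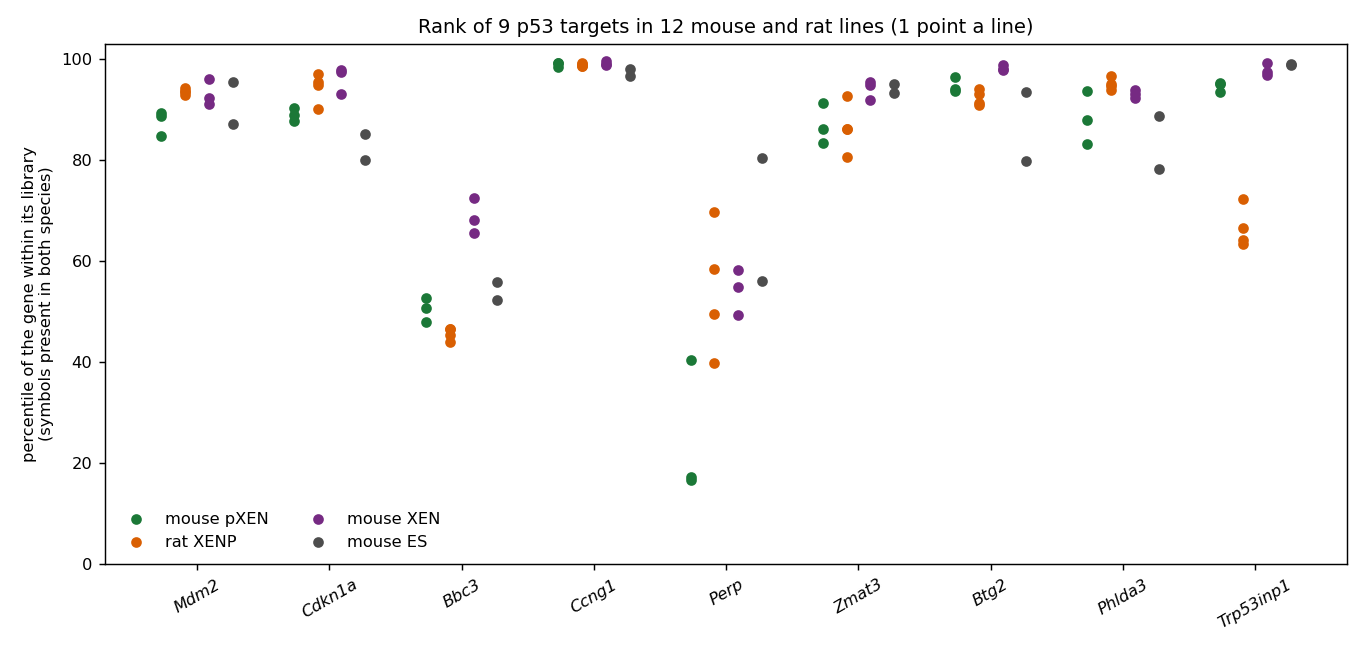
Percentile of each of 9 targets within its library among symbols ranked in both species, with 1 point a line for mouse pXEN, rat XENP, mouse XEN and mouse ES. Trp53inp1 lies at 63.4 to 72.3 in rat XENP, below every mouse line, while Ccng1 lies at 96.7 or above in all 12 lines.

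The wider pathway was read through 6 gene lists. Of 10 kinases and cofactors that modify or bind p53 after DNA damage, 5 were lower and 0 higher in pXEN than in ES (Atm, Chek1, Chek2, Prkdc and Ep300), with a list median of -0.75. In XEN 5 were lower (Atm, Atr, Chek1, Chek2 and Ep300) and Hipk2 was higher, with a median of -0.76. Of all genes tested 17.8% were called lower in each comparison, and 18.2% in pXEN and 20.7% in XEN were called higher. Chek2, a checkpoint kinase that phosphorylates p53, averaged 14.4 ± 1.17 CPM in pXEN lines, 14.7 ± 1.29 in XEN lines and 58.0 ± 17.5 in ES lines (SD, n = 3, 3 and 2). Its log2 fold change was -2.00 in pXEN (adjusted p = 0.000275) and -1.98 in XEN (adjusted p = 0.000333). Calls of Chek2 in both comparisons and of Atm and Atr in XEN held under every alternative. Those of Atm, Chek1, Prkdc and Ep300 in pXEN and of Chek1, Ep300 and Hipk2 in XEN did not survive leaving out 1 of the ES lines (highest adjusted p 0.149). Some were lost also without pXEN2, pXEN4, pXEN6, XEN1 or XEN5. Between pXEN and XEN neither edgeR nor DESeq2 called any of the 10, and 1 had an unadjusted p under 0.05.

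Among 8 regulators of p53, Mdm4, Usp7 and Sirt1 were lower in both pXEN and XEN than in ES, and Ppm1d was higher in both. The shares over all genes were 17.8% lower in both comparisons, with 18.2% higher in pXEN and 20.7% higher in XEN. Mdm4, the partner of Mdm2 that blocks p53's activation domain, had a mean of 99.3 ± 12.2 CPM across pXEN, 75.4 ± 16.4 across XEN and 178 ± 20.4 across ES. Sirt1, a deacetylase of p53, averaged 41.4 ± 1.36, 40.0 ± 10.8 and 107 ± 27.5 CPM in the same groups (adjusted p = 0.00243 in pXEN and 0.00213 in XEN). Ppm1d, the phosphatase Wip1 that is itself a p53 target, was at 75.9 ± 7.95 CPM (pXEN), 120.0 ± 23.6 (XEN) and 42.5 ± 4.33 (ES), and in XEN it was 2.82-fold higher (adjusted p = 0.001). Cdkn2a, whose Arf product restrains Mdm2, was called higher in pXEN (log2 fold change 1.35, adjusted p = 0.0471), but not by DESeq2, with RLE or upper-quartile scaling, or without pXEN2, pXEN6, ES2 or ES3 (adjusted p up to 0.263). Without ES2 the Usp7 calls were lost (adjusted p up to 0.132), and in pXEN the Ppm1d call was lost without pXEN6, ES2 or ES3 and the Mdm4 call without pXEN2 or ES3 (adjusted p up to 0.141). List medians were -0.55 in pXEN and -0.34 in XEN. Between pXEN and XEN neither tool called any of the 8, and 1 had an unadjusted p under 0.05.

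Of 20 further targets in arrest, repair and metabolism, 18 were tested, and 1 was higher (Polk) and 3 lower (Tigar, Ak1 and Epha2) in pXEN than in ES. In XEN 3 were higher (Plk2, Polk and Dcxr) and 2 lower (Tigar and Ak1). None of these counts exceeded the background shares given above, 18.2% higher and 17.8% lower for pXEN and 20.7% higher and 17.8% lower for XEN. List medians were -0.53 and 0.09. Against XEN, pXEN had 2 of the 18 lower (Plk2 and Ak1) and 0 higher, with a list median of -0.62. Over all genes 3.63% were called lower in that comparison and 0.918% higher. Plk2, a kinase of the centrosome cycle, had 13.8 ± 3.53 CPM on average in pXEN, 82.8 ± 27.6 CPM in XEN and 19.3 ± 6.34 CPM in ES. It was higher in XEN than in ES (log2 fold change 2.10, adjusted p = 0.00142) and lower in pXEN than in XEN (-2.58, adjusted p = 0.00121), under every alternative. Polk, a DNA polymerase that copies past damage, averaged 52.9 ± 9.40, 77.4 ± 6.74 and 25.4 ± 8.66 CPM in pXEN, XEN and ES (log2 fold change 1.05 in pXEN and 1.60 in XEN, adjusted p = 0.0131 and 0.00143). Ak1, an adenylate kinase, was lower in pXEN than in XEN as well (3.92 ± 2.79 against 28.7 ± 9.57 CPM, adjusted p = 0.0118). The Polk call in pXEN was lost without ES2 (adjusted p = 0.137) and the Ak1 call in XEN without ES3 (0.0504). The XEN calls of Dcxr and Tigar were lost without XEN5 or ES2, and of Dcxr also without ES3 and of Tigar without XEN1 (adjusted p up to 0.164). The log2 fold change of Dcxr ran from 1.17 to 2.47.

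Of 9 other apoptosis targets 8 were tested, and edgeR called only Apaf1, the core of the apoptosome, higher in XEN than in ES (log2 fold change 0.88, adjusted p = 0.0198). In pXEN against ES edgeR called 0 of the 8, and 1 had an unadjusted p under 0.05. DESeq2 called 1 lower, and 1952 of all its 13211 genes. Pmaip1 had the largest log2 fold change of the 8 there (-3.27, adjusted p = 0.074, edgeR), with 40 counts in pXEN and 190 in ES. Its ES lines were uneven (38.9 ± 46.7 CPM, SD, n = 2). Over all genes edgeR called 38.4% in XEN and 35.9% in pXEN against ES. The Apaf1 call was lost without XEN1 or ES2 (adjusted p up to 0.154). Bax, which permeabilises mitochondria, stood at 119 ± 11.8 CPM in pXEN lines, 111 ± 23.1 in XEN lines and 161 ± 29.9 in ES lines (adjusted p = 0.176 and 0.0981 against ES). Fas, a death receptor, was counted 6 times in XEN and never in pXEN or ES. Among relatives and partners of p53, Trp63 and Trp73 did not pass the count filter (the pXEN lines gave 0 counts of Trp73, the XEN lines 1 and the ES lines 26). Among those tested, Ppp1r13l, which inhibits p53, had 5 counts in pXEN against 14 in ES (adjusted p = 0.0469). That call was lost by DESeq2 and without the count filter, with sex as an added term, and without pXEN2, pXEN6, ES2 or ES3 (adjusted p up to 0.197), and its log2 fold change ran from -3.01 to -1.82.

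Of 10 mitotic genes that p53 is known to lower through p21, 3 were called in pXEN against ES (Cdc25c and Foxm1 higher, Mybl2 lower). In XEN against ES 3 were called as well (Cdc25c higher, Mybl2 and Cdc20 lower). The shares called over all genes were 35.9% and 38.4%, so these counts are near the background. List medians were 0.24 and -0.34. Mybl2, a transcription factor of cycling cells, had 23.2 ± 3.15 CPM across pXEN, 21.4 ± 5.44 across XEN and 89.6 ± 11.6 across ES (log2 fold change -1.95 and -2.07, adjusted p = 0.000273 and 0.000209), under every alternative. The call of Cdc25c in pXEN was lost without ES3 (adjusted p = 0.0894). Foxm1 was lost without pXEN2, pXEN6, ES2 or ES3 (adjusted p up to 0.141), and Cdc20 without XEN1, XEN5, ES2, ES3 or the count filter (up to 0.173). In XEN Cdc25c was lost without XEN1, ES2 or ES3, with DESeq2, with upper-quartile factors and in a fit of the compared groups alone (up to 0.2). Between pXEN and XEN, where 4.55% of all genes were called, edgeR called none of the 10 (2 had an unadjusted p under 0.05) and DESeq2 called 1 higher in pXEN. The list median there was 0.26.

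**Figure D4:**
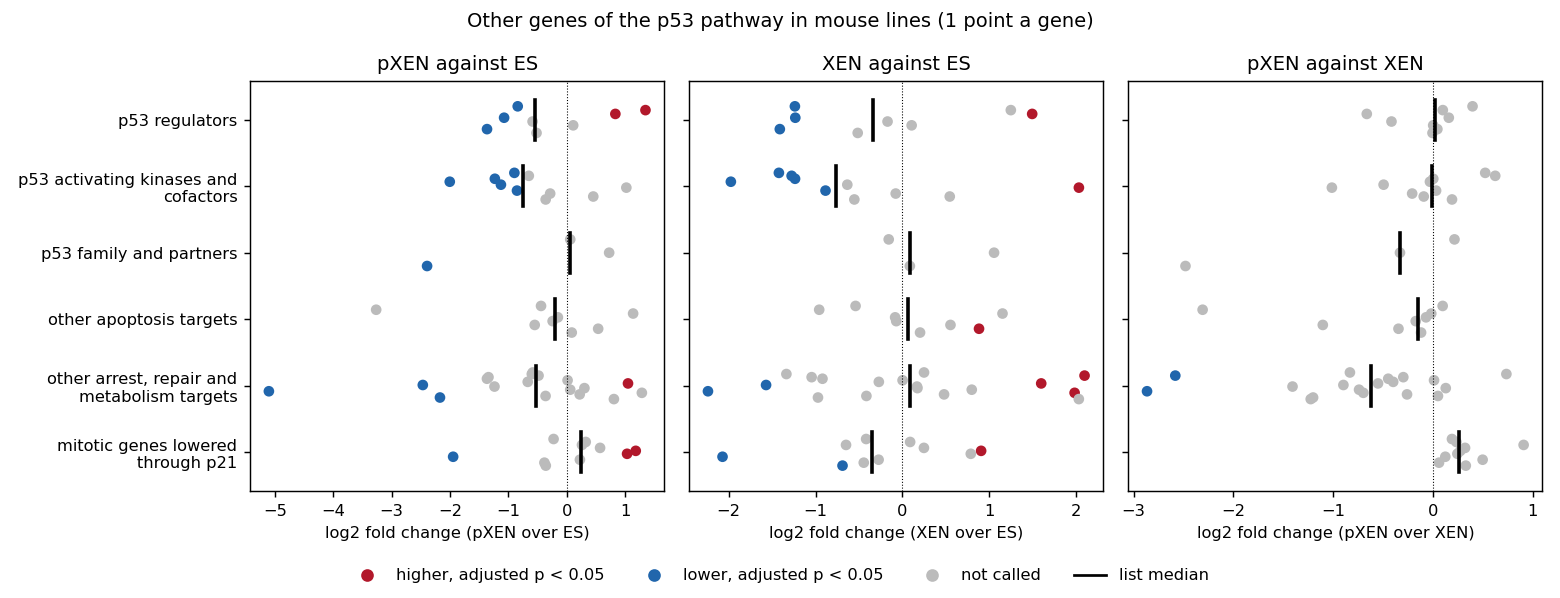
Log2 fold change of each tested gene of the 6 pathway lists (1 point a gene, coloured by the call at an adjusted p of 0.05) for pXEN over ES, XEN over ES and pXEN over XEN, with a bar at the list median. Called kinases and cofactors are lower in both comparisons with ES, except Hipk2 in XEN, and only Plk2 and Ak1 are called in pXEN over XEN.

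The genes most like Trp53 across the 8 mouse lines were Sap30, Phc1, H2-M5, Foxh1 and Mylpf, by Pearson's r of log2(CPM + 1) among 7570 other genes with a mean of at least 10 CPM (r from 0.991 to 0.993). All 5 were high in ES and low in both endoderm groups, as Phc1 with means of 11.7, 11.8 and 98.2 CPM in pXEN, XEN and ES. Those most like Cdkn1a were St3gal2, Ndel1, Lyrm2, Abhd4 and Frmd8 (r from 0.953 to 0.961), and Abhd4 averaged 80.4, 152 and 46.6 CPM in the same groups. Among the members, Btg2 was the one most like Cdkn1a (r = 0.898), and Trp53inp1 (r = 0.627) and Perp (r = 0.603) were the most like Trp53. These r values are over 8 lines in 3 groups and carry no test.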

How the data were processed

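Libraries were made from total RNA after ribosomal RNA depletion with a strand-specific kit and read from both ends, per the labels' protocols. Each line has a table deposited by the authors with raw gene counts in unstranded, same-strand and reverse-strand columns. The submitters' processing notes name CASAVA 1.8.2, Trimmomatic 0.33, STAR 2.5.1, DESeq2, mm10 and rn6. Which gene annotation was counted is not stated there. Reverse-strand counts were analysed, as that column held 98.9% to 99.3% of stranded gene counts in mouse. Read classes that name no gene (73.4% to 78.3% of mouse reads, 89.7% to 91.8% of rat reads) were left out.

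All 8 mouse libraries were fitted together with edgeR 4.0.16 (R 4.3.3): filterByExpr by group with a minimum count of 10, TMM scaling, robust quasi-likelihood fit, Benjamini-Hochberg adjustment over 10895 genes, threshold 0.05. Each SE is the size of the log2 fold change over the square root of F. DESeq2 1.42.0 was an alternative, and alternatives were otherwise run in edgeR. On simulated counts with 100 genes changed 4-fold, the fit recovered 77% in pXEN against ES (10440 genes), 85% in XEN against ES (10541) and 96% in pXEN against XEN (10410). Of 100 genes changed 2-fold it recovered 19%, 23% and 16%, with 4, 11 and 9 false calls in those comparisons. The changed genes were drawn only from the more abundant ones. They were also a far smaller share of genes than was called against ES in the data. The recovery rates therefore do not describe rare members such as Bbc3 and Perp, nor the real comparisons with ES. Coordinates and exon lengths are from GENCODE vM21 (GRCm38). Overlapping antisense annotation was found only for Cdkn1a, and counting was by strand.

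The members, the lists and the tests were chosen with earlier results of these data known. Named list genes are the called ones that reach a mean of 10 CPM in either group, up to 3 per list and comparison by fold change, and every one where 5 or fewer were called. Genes of the apoptosis list that edgeR did not call (Bax, Fas, Pmaip1) and Trp73 of the relatives were named after their values were seen. The motif criterion was set after the windows were read. Counting intervals cover counting error only. The rat counterpart of 1 member is not reported here.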

Additional observations from a re-analysis of the deposited data

How the results depend on the processing

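Over the 30 member comparisons and 400 alternative values (DESeq2, RLE and upper-quartile factors, no count filter, unstranded counts, Rn45s left out, the compared groups alone, sex as an added term, and each line left out), 356 kept direction and side of the threshold, 24 lost a call, 14 gained one and 6 changed sign. The 6 sign changes were of differences that were not called. For Trp53 in pXEN against XEN the log2 difference was 0.033 with sex as an added term and ran from -0.22 to 0.10 with a line left out. With a line left out, Ccng1 in pXEN against XEN ran from -0.52 to 0.15, Mdm2 in pXEN against ES from -0.96 to 0.19 and Mdm2 in XEN against ES from -0.13 to 1.02.

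Members higher in pXEN than in ES numbered 2 with DESeq2 (1918 of all 13211 genes) and 2 in a fit of those groups alone (1974 of 10301). With a pXEN line left out they numbered 0 to 1 (1703 to 1818 of all genes). In XEN against ES, leaving out a XEN line gave 4 higher and 1 to 2 lower members. Of all genes 1923 to 2158 were then higher and 1566 to 1834 lower. In pXEN against XEN the lower members numbered 6 with DESeq2 (473 of 12559 genes) and 5 without the count filter (548 of 17101). With a line left out they numbered 2 to 3 (255 to 362 of all genes). Leaving out an ES line leaves 1 sample in that group, assumed to vary like the others. The cause of these shifts was not tested. In rat the mean of Perp was 10.3 CPM without CX1 and 17.8 CPM over all 4 lines. The median log2 fold change of all genes was -0.22 in pXEN and -0.15 in XEN against ES with DESeq2 and -0.13 and -0.11 with upper-quartile factors. No paired analysis was possible because line numbers name separately derived lines and the mouse groups that were compared share at most 1 number. Depth limits Bbc3 and Perp most.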

Other observations

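Wrap53 begins beside Trp53 on the opposite strand, and its level was looked up after the fall of Trp53 had been seen. It averaged 12.0 ± 0.508 CPM in pXEN and 11.5 ± 1.21 CPM in XEN (SD, n = 3 each), against 17.2 ± 1.61 CPM in ES (n = 2), with 26 to 47 counts per line. Its log2 fold change was -0.51 in pXEN (95% interval -1.17 to 0.14, adjusted p = 0.205) and -0.57 in XEN (-1.23 to 0.08, adjusted p = 0.151, edgeR). The changes measured for Trp53 were -2.72 and -2.67, and the difference between the 2 genes was not tested.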
